A study of Mus musculus with 18 samples.

Results

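The interferon-inducible GTPases and the chemokine Cxcl9 described here are 10 of the 21899 gene IDs measured in mouse inguinal fat. They are the guanylate binding proteins Gbp2, Gbp3, Gbp4, Gbp6, Gbp7 and Gbp9, the immunity related GTPases Igtp, Irgm1 and Irgm2, and Cxcl9. The genes were taken by symbol from a list that had been selected on expression values of these same 18 libraries, with the contrasts of both days in view; which single values decided is not recorded. Their differences between the groups are therefore given as a description of chosen genes, and the p-values beside them only place each gene among all genes of the same fit. All 10 were found, all passed the filter on low counts at both days, and none was at 0 in any library.

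The study followed fat during the growth of a transplanted tumour in male C57BL/6J mice, of an age that the sources at hand do not state. The tumour cells were Lewis lung carcinoma (LLC), a mouse lung tumour line, and controls received phosphate-buffered saline (PBS) by the same subcutaneous route. The 4 groups hold 5 LLC and 4 PBS libraries of day 21, and 5 LLC and 4 PBS libraries of day 7. By the labels, day 7 is a pre-cachexia stage and day 21 is cachexia, a wasting of fat and muscle. No transgene, genotype or drug is named for any group, and the PBS mice carried no tumour cells. The titles number the samples without saying that each is a separate animal, so the p-values rest on differences among samples that could in part be technical. Throughout, ± gives the SD for a level and the standard error (SE) for a log2 fold change, and a log2 value of 1 is a 2-fold change.

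Interferon-gamma, a cytokine made mainly by T cells and natural killer cells, signals through its receptor and the kinases JAK1 and JAK2. Guanylate binding proteins and immunity related GTPases are large GTP-hydrolysing proteins induced by it, which act inside cells against bacteria and parasites held in vacuoles, and many of them also respond to type I interferon. CXCL9 is a secreted chemokine that draws activated T cells and natural killer cells bearing the receptor CXCR3.

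The label of the set names interferon-gamma, so the cytokine itself was looked up first. Ifng averaged 0.0528 ± 0.0607 CPM in day 21 LLC fat and 0.0772 ± 0.0753 CPM in day 21 PBS fat. At day 7 it averaged 0.160 ± 0.122 CPM in LLC fat and 0.152 ± 0.0747 CPM in PBS fat (SD; n = 5 LLC and n = 4 PBS at each day; CPM are counts scaled to a common library size with TMM factors). Ifng did not pass the filter on low counts at either day, so its transcript could not be compared at this depth. These genes are accordingly called interferon-inducible below.

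Libraries held between 14566155 and 18969387 counts and between 15516 and 16232 detected genes. Adipocyte markers stood high throughout, with a summed level of 14278 to 29043 CPM in day 21 LLC fat, 23758 to 35832 CPM in day 21 PBS fat, 18263 to 23863 CPM in day 7 LLC fat and 18075 to 24741 CPM in day 7 PBS fat. Day 21 PBS library 4 and day 21 LLC libraries 1 and 3 stood apart from their groups, the first 2 in macrophage and the third in B cell markers, and day 7 LLC libraries 2 and 4 in the genes described here. Values without these libraries are given where they bear on a result.

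The promoter sequences are shown because interferon acts on many of the genes it induces through 2 known DNA elements. The first is the interferon-stimulated response element, searched here by its core of 2 GAAA half-sites with any 2 bases between them (NN), on both strands, and the other is the gamma-activated site, searched by its core TTCNNNGAA, which reads alike on both strands. RefSeq windows of 300 bases (GRCm38.p6) were held for 7 members, namely Gbp2, Gbp3, Gbp7, Igtp, Irgm1, Irgm2 and Cxcl9, and of the 2 windows of Gbp3 the upstream one is shown, the other holding neither core. The first core was found in 6 of these 7 members, and Cxcl9 was the exception. It was found in 3.99% of all 27025 genes with windows of this length, and in 3.44% of their 32851 windows. The second core was found in 3 of the 7 members (Gbp7, Igtp and Irgm2), against 9.55% of all genes and 8.30% of all windows, and 0.454% of all windows held both. The 120 bases before each RefSeq gene start follow, 5′ to 3′ on the gene's own strand, in lower case with every match to either core in capitals.
Gbp2: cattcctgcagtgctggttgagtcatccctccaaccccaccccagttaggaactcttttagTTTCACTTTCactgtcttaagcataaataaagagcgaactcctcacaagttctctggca
Gbp3: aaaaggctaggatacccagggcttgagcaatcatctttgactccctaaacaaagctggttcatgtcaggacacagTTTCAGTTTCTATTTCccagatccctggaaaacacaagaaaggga
Gbp7: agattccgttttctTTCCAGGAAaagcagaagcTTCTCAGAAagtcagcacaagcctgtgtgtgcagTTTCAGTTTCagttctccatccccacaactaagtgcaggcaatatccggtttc
Igtp: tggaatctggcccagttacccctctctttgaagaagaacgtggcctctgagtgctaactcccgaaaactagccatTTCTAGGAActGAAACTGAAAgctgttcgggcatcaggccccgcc
Irgm1: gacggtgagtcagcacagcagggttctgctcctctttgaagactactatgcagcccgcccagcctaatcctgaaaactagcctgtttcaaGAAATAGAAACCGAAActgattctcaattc
Irgm2: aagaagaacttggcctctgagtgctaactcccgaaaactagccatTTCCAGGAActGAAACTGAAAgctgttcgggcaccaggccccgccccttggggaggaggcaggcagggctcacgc
Cxcl9: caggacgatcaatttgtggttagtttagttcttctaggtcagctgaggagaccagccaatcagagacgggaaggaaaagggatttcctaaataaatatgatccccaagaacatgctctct

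The stretch of Gbp2 is chr3:142620543-142620662 on the + strand, that of Gbp3 chr3:142559924-142560043 on the + strand and that of Gbp7 chr3:142530216-142530335 on the + strand. The stretch of Igtp is chr11:58199436-58199555 on the + strand, that of Irgm2 chr11:58214857-58214976 on the + strand and that of Irgm1 chr11:48871421-48871540 on the - strand. The stretch of Cxcl9 is chr5:92328080-92328199 on the - strand. Gbp3 and Irgm1 each had 2 overlapping matches to the first core, and Gbp7 had 2 separate matches to the second. In Igtp and Irgm2, neighbours on chromosome 11, the second core lay just upstream of the first, with its first base at -45 and -75 from the start, and the 2 promoter windows were 91.1% identical over 271 aligned positions. A match is a description of letters, not of a bound site. The lack of a match, as in Cxcl9, does not show that a gene lacks an interferon element, since only these 2 cores were searched.

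**Figure D1:**
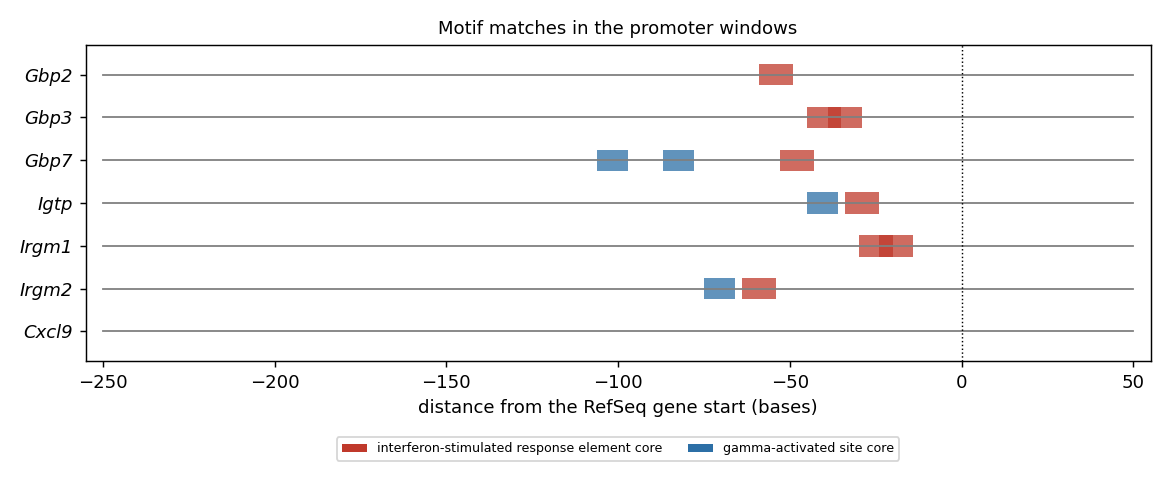
Positions of the 2 motif cores in the RefSeq promoter windows of the 7 members that had one, plotted by distance in bases from the gene start (dotted line at 0); red boxes mark the response element core and blue boxes the gamma-activated site core, and darker red marks overlapping matches. All matches lay upstream of the start, between -106 and -24 by their first base, and Cxcl9 had none.

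The members fall into 5 places in the genome (GRCm38, GENCODE annotation). Gbp7 (ENSMUSG00000040253, chromosome 3, 142530342 to 142550149, + strand), Gbp3 (ENSMUSG00000028268, chromosome 3, 142560026 to 142573209, + strand) and Gbp2 (ENSMUSG00000028270, chromosome 3, 142620602 to 142638008, + strand) form a cluster. Gbp9 (ENSMUSG00000029298, chromosome 5, 105077630 to 105139539, - strand), Gbp4 (ENSMUSG00000079363, chromosome 5, 105115767 to 105139586, - strand) and Gbp6 (ENSMUSG00000104713, chromosome 5, 105270702 to 105293698, - strand) form another, and Cxcl9 (ENSMUSG00000029417, chromosome 5, 92321347 to 92328079, - strand) lies apart on the same chromosome. Igtp (ENSMUSG00000078853, chromosome 11, 58199556 to 58207591, + strand) and Irgm2 (ENSMUSG00000069874, chromosome 11, 58199618 to 58222782, + strand) overlap on one strand, while Irgm1 (ENSMUSG00000046879, chromosome 11, 48861968 to 48871683, - strand) lies apart on that chromosome.

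Levels between genes were compared in TPM, the authors' values per transcript length. Over the 18 libraries Gbp2 had the highest mean at 68.0 TPM, followed by Igtp at 50.3, Irgm2 at 44.8, Gbp6 at 40.0, Gbp3 at 39.1, Irgm1 at 37.2, Cxcl9 at 28.3, Gbp4 at 25.8, Gbp7 at 23.4 and Gbp9 at 21.0 TPM. In the day 7 PBS libraries, Gbp2 stood at 66.3 ± 3.63 TPM, above Irgm2 at 41.3 ± 3.36 TPM without overlap (SD, n = 4). Igtp (40.0 ± 5.53), Gbp6 (34.1 ± 5.52), Gbp3 (34.0 ± 4.59), Irgm1 (32.0 ± 1.71) and Cxcl9 (29.3 ± 3.86 TPM) followed, and each neighbour in this order overlapped the next. Gbp7 (21.2 ± 2.12), Gbp4 (20.9 ± 6.51) and Gbp9 (19.4 ± 2.30 TPM) came last and overlapped one another, and Gbp7 lay below Cxcl9 without overlap. All values that follow are CPM or log2 differences of counts.

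The first comparison asked how LLC fat differed from PBS fat at day 7, before wasting. All 10 members had a positive log2 fold change in LLC fat, from 0.28 for Cxcl9 to 1.04 for Gbp4, with a median of 0.69 against 0.0045 over all 13445 genes tested. A positive sign was found in 51.1% of all genes. None of the members passed 0.05 after adjustment over all genes in edgeR, where 0.00744% of genes were called higher. On the higher side 9 members had an unadjusted p under 0.05, against 4.86% of genes, and DESeq2 called 4 (Gbp6, Gbp7, Igtp and Irgm1), against 0.55% of genes. Limma on log2(TPM + 1) called none. In 5 members (Gbp3, Gbp7, Igtp, Irgm1 and Irgm2) every LLC library lay above every PBS library, which 1.18% of genes did. These shares describe genes chosen with such values known, and nothing is read from their distance to the background. In bulk tissue, fewer cells of a type and less RNA per cell cannot be told apart, here and in all that follows.

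Among the guanylate binding proteins of chromosome 3, a cluster needed in mice for resistance to Toxoplasma gondii, LLC libraries 2 and 4 were the highest. Gbp2 measured 93.1, 158, 82.7, 173 and 94.1 CPM in LLC libraries 1 to 5, against 93.8, 76.6, 90.2 and 81.3 CPM in PBS libraries 1 to 4. Gbp3 measured 57.0, 96.0, 50.7, 113 and 49.6 CPM in LLC libraries 1 to 5, against 47.8, 32.7, 46.0 and 40.8 CPM in PBS libraries 1 to 4. Gbp7 measured 73.5, 118, 73.9, 133 and 72.7 CPM in LLC libraries 1 to 5, against 61.3, 51.8, 57.6 and 59.6 CPM in PBS libraries 1 to 4. The LLC and PBS values of Gbp2, a protein that gathers on the vacuoles of parasites, overlapped, since LLC library 3 lay below 2 PBS libraries. Those of Gbp3 and of Gbp7, which in mouse macrophages helps assemble the oxidase that makes superoxide, did not overlap, although LLC library 5 of Gbp3 was within 2 CPM of PBS library 1. Gbp2 showed a log2 difference of 0.50 ± 0.22 (edgeR adjusted p = 0.568). Gbp3 had one of 0.81 ± 0.25 (edgeR adjusted p = 0.425). Gbp7 had one of 0.72 ± 0.19 (edgeR adjusted p = 0.399, DESeq2 adjusted p = 0.0454).

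In the chromosome 5 cluster LLC libraries 2 and 4 were again the highest. Gbp4 measured 75.4, 120.4, 51.3, 173 and 44.8 CPM in LLC libraries 1 to 5, against 73.9, 33.3, 37.0 and 37.2 CPM in PBS libraries 1 to 4. Gbp6 measured 73.7, 133, 80.5, 149 and 114 CPM in LLC libraries 1 to 5, against 75.7, 47.2, 65.5 and 63.0 CPM in PBS libraries 1 to 4. Gbp9 measured 61.3, 85.1, 49.7, 86.6 and 50.7 CPM in LLC libraries 1 to 5, against 54.3, 36.9, 42.2 and 41.5 CPM in PBS libraries 1 to 4. In all 3 genes PBS library 1 was the highest control and lay above at least 1 LLC library, so the groups overlapped. Gbp4 showed a log2 difference of 1.04 ± 0.40 (edgeR adjusted p = 0.54). Gbp6 had one of 0.81 ± 0.21 (edgeR adjusted p = 0.399, DESeq2 adjusted p = 0.0338). Gbp9 had one of 0.61 ± 0.19 (edgeR adjusted p = 0.422).

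Igtp, Irgm1 and Irgm2 are the regulatory branch of the immunity related GTPases, which sit on endoplasmic reticulum, Golgi and lysosomal membranes and hold the effector GTPases inactive there. Igtp measured 50.5, 112, 61.8, 103 and 70.6 CPM in LLC libraries 1 to 5, against 47.5, 36.7, 48.8 and 31.9 CPM in PBS libraries 1 to 4. Irgm1 measured 42.5, 69.9, 50.5, 70.1 and 42.7 CPM in LLC libraries 1 to 5, against 37.2, 31.6, 36.7 and 33.5 CPM in PBS libraries 1 to 4. Irgm2 measured 90.2, 145, 99.0, 143 and 82.7 CPM in LLC libraries 1 to 5, against 76.1, 65.6, 79.1 and 72.6 CPM in PBS libraries 1 to 4. In each of the 3 genes all LLC libraries exceeded all PBS libraries, with LLC libraries 2 and 4 well above the other LLC libraries. Igtp showed a log2 difference of 0.96 ± 0.23 (edgeR adjusted p = 0.383, DESeq2 adjusted p = 0.0151). Irgm1 had one of 0.67 ± 0.16 (edgeR adjusted p = 0.383, DESeq2 adjusted p = 0.0258). Irgm2 had one of 0.61 ± 0.17 (edgeR adjusted p = 0.399, DESeq2 adjusted p = 0.0626).

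Cxcl9, the only secreted member, measured 59.4, 62.7, 39.1, 55.9 and 47.5 CPM in LLC libraries 1 to 5, against 56.2, 39.9, 44.7 and 34.3 CPM in PBS libraries 1 to 4. The groups overlapped, and LLC library 4, among the highest in every GTPase, was only the third of its group. Cxcl9 showed a log2 difference of 0.28 ± 0.16 (edgeR adjusted p = 0.693). In the authors' deposited table for day 7, 2 members had an FDR under 0.05, Gbp6 (0.0322) and Igtp (0.0114), as did 0.205% of the gene IDs on the higher side.

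The 2 highest LLC libraries carried much of the day 7 difference. Without LLC libraries 2 and 4 all 10 members still had a positive log2 fold change, but between 0.08 (Gbp2) and 0.57 (Igtp), with a median of 0.33.

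**Figure D2:**
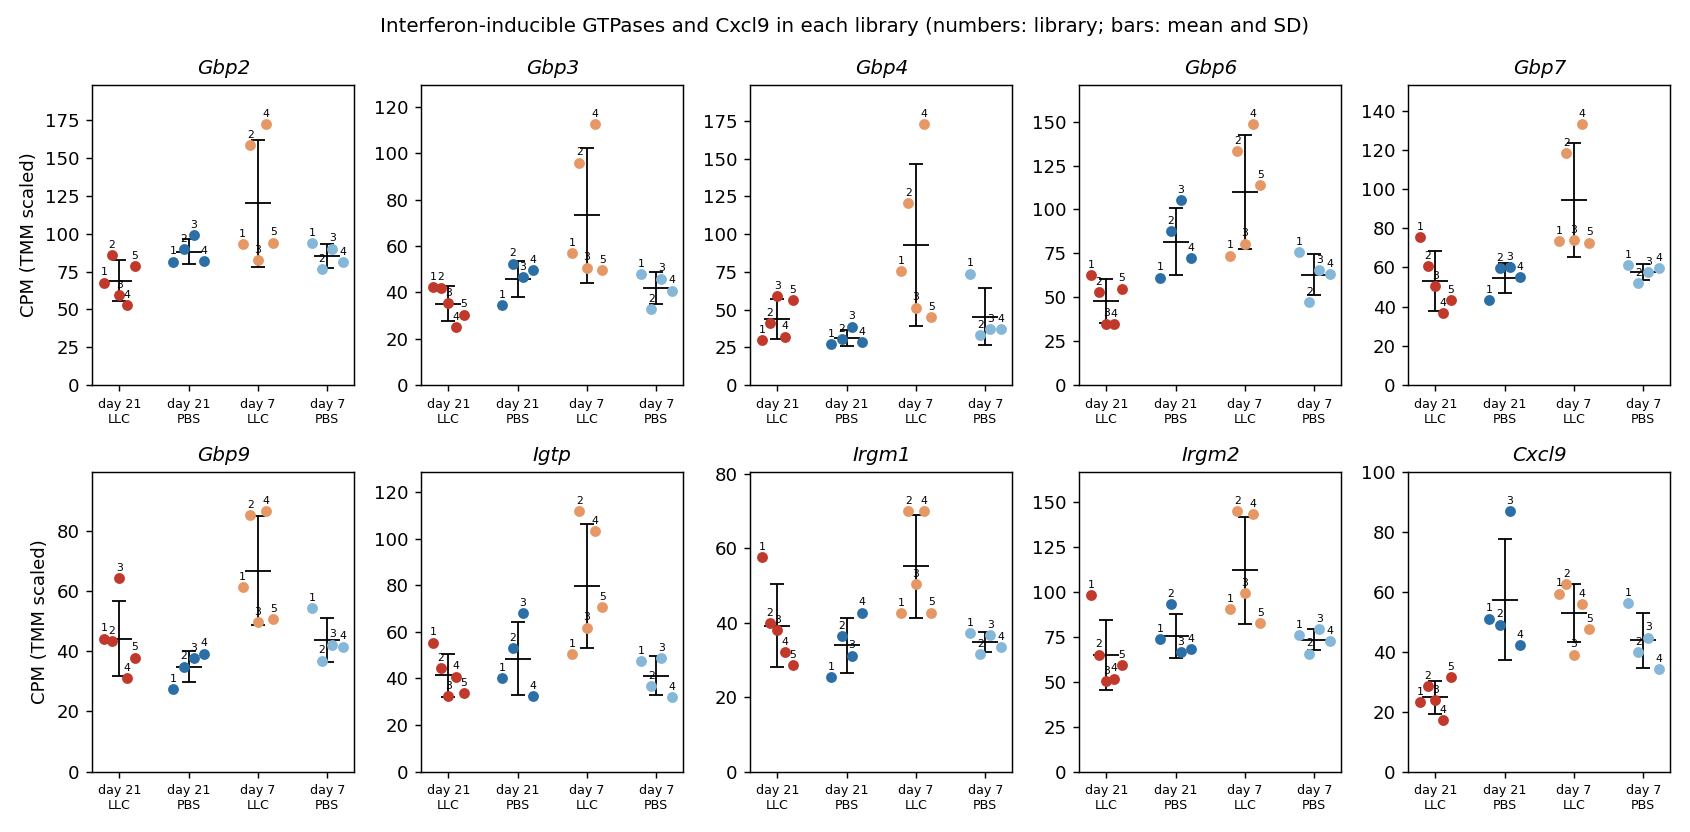
Level of each of the 10 members in every library, in TMM-scaled CPM on linear axes that start at 0; points are libraries, numbered within their group, and bars are the group mean and SD (n = 5 for LLC, n = 4 for PBS). Day 7 LLC libraries 2 and 4 stand high in all 9 GTPases, and the 5 day 21 LLC values of Cxcl9, from 17.2 to 31.5 CPM, lie below every other group.

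The second comparison asked the same question at day 21, the cachexia stage. The members no longer shared a direction, since 3 (Gbp4, Gbp9 and Irgm1) had a positive and 7 a negative log2 fold change in LLC fat, with a median of -0.24 against 0.017 over the 13564 genes tested, of which 51.9% were positive. None passed the threshold in edgeR, where 0.0664% of genes were called higher and 0.0221% lower. An unadjusted p under 0.05 was found for 3 members, all lower (Gbp2, Gbp6 and Cxcl9), against 11.5% of genes. DESeq2 called 2 of them lower (Gbp6 and Cxcl9), against 5.57% of genes, and limma on log2(TPM + 1) called none. In Cxcl9 alone did the groups not overlap, with the LLC values lower, as in 4.46% of genes.

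Cxcl9 measured 23.2, 28.5, 24.0, 17.2 and 31.5 CPM in LLC libraries 1 to 5, against 51.1, 49.1, 87.0 and 42.3 CPM in PBS libraries 1 to 4. The highest LLC library thus lay below the lowest PBS library, and PBS library 3 stood well above the other controls. Cxcl9 averaged 24.9 ± 5.47 CPM in LLC fat and 57.4 ± 20.1 CPM in PBS fat (SD). LLC over PBS came to a log2 value of -1.23 ± 0.24 (edgeR adjusted p = 0.0634, DESeq2 adjusted p = 0.000347), and in the authors' deposited table it had an FDR of 0.00363, where 1.31% of gene IDs were under 0.05 and lower. Without PBS library 4 the edgeR adjusted p was 0.0143 and the log2 fold change -1.35. That fit called 1277 of all genes, against 12 with every library kept. Without PBS library 1, 2 or 3 the edgeR adjusted p was 0.192, 0.212 and 0.189, and the log2 fold change -1.28, -1.30 and -0.95. With the 3 libraries that stood apart left out, the edgeR adjusted p was 0.0491 and the log2 fold change -1.29, in a fit that called 962 genes.

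Among the chromosome 5 genes the directions differed. Gbp4 measured 29.7, 41.3, 59.1, 32.2 and 56.4 CPM in LLC libraries 1 to 5, against 27.2, 30.4, 38.8 and 28.5 CPM in PBS libraries 1 to 4. Gbp6 measured 62.6, 52.8, 35.0, 34.9 and 54.9 CPM in LLC libraries 1 to 5, against 61.1, 87.6, 105 and 72.2 CPM in PBS libraries 1 to 4. Gbp9 measured 44.2, 43.3, 64.2, 31.02 and 37.9 CPM in LLC libraries 1 to 5, against 27.5, 34.9, 37.6 and 39.2 CPM in PBS libraries 1 to 4. Gbp6 was lower in LLC fat, and its groups overlapped only through LLC library 1 and PBS library 1. Gbp4 and Gbp9 leaned the other way with overlapping groups, and for both LLC library 3 was the highest. Gbp6 showed a log2 difference of -0.78 ± 0.22 (edgeR adjusted p = 0.101, DESeq2 adjusted p = 0.0221). Gbp4 had one of 0.46 ± 0.23 (edgeR adjusted p = 0.25). Gbp9 had one of 0.32 ± 0.21 (edgeR adjusted p = 0.36).

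The chromosome 3 genes had negative log2 fold changes, that of Gbp7 near 0 and turning positive in TPM. Gbp2 measured 67.7, 86.1, 59.5, 52.9 and 78.4 CPM in LLC libraries 1 to 5, against 81.6, 89.8, 99.2 and 82.1 CPM in PBS libraries 1 to 4. Gbp3 measured 42.3, 42.0, 35.4, 25.0 and 30.3 CPM in LLC libraries 1 to 5, against 34.5, 52.4, 46.4 and 49.7 CPM in PBS libraries 1 to 4. Gbp7 measured 75.6, 60.5, 50.3, 36.6 and 43.2 CPM in LLC libraries 1 to 5, against 43.5, 59.7, 60.0 and 55.2 CPM in PBS libraries 1 to 4. In Gbp2 only LLC library 2 reached into the PBS range, whereas in Gbp3 and Gbp7 the groups overlapped widely. Gbp2 showed a log2 difference of -0.38 ± 0.15 (edgeR adjusted p = 0.178). Gbp3 had one of -0.40 ± 0.19 (edgeR adjusted p = 0.223). Gbp7 had one of -0.06 ± 0.21 (edgeR adjusted p = 0.884), and the value was positive without LLC library 4 or 5 too.

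The regulatory immunity related GTPases also overlapped their controls at day 21. Igtp measured 55.4, 44.5, 32.5, 40.8 and 33.7 CPM in LLC libraries 1 to 5, against 40.2, 53.1, 68.2 and 32.4 CPM in PBS libraries 1 to 4. Irgm1 measured 57.6, 39.8, 38.0, 32.2 and 28.5 CPM in LLC libraries 1 to 5, against 25.4, 36.4, 31.2 and 42.7 CPM in PBS libraries 1 to 4. Irgm2 measured 97.9, 65.1, 50.4, 51.7 and 59.2 CPM in LLC libraries 1 to 5, against 73.6, 93.1, 66.5 and 68.3 CPM in PBS libraries 1 to 4. LLC library 1, the one with the most macrophage marker counts, was the highest of its group in all 3, and the other LLC libraries lay within or below the PBS range. Igtp showed a log2 difference of -0.25 ± 0.23 (edgeR adjusted p = 0.527). Irgm1 had one of 0.19 ± 0.22 (edgeR adjusted p = 0.615). Irgm2 had one of -0.24 ± 0.21 (edgeR adjusted p = 0.495).

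The third comparison asked whether the tumour effect itself differed between the days. It is the log2 fold change of LLC over PBS at day 21 minus that at day 7, from 1 fit of all 18 libraries. The value was negative for all 10 members, with a median of -0.84 against 0.053 over 13975 genes, of which 55.1% were positive. Gbp6 (-1.57 ± 0.33, edgeR adjusted p = 0.048) and Cxcl9 (-1.48 ± 0.31, edgeR adjusted p = 0.044) passed the threshold, at which 0.15% of genes were called lower. DESeq2 also called Gbp3 (adjusted p = 0.0229) and Igtp (adjusted p = 0.0328), for 4 members in all against 2.46% of genes. At an unadjusted p under 0.05 there were 7 members, against 7.93% of genes. The smallest differences were those of Gbp9 (-0.27 ± 0.30), Irgm1 (-0.45 ± 0.29) and Gbp4 (-0.55 ± 0.50).

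Both calls in edgeR were close to the threshold. Each was kept when day 21 PBS library 4 or day 21 LLC library 1, 2 or 5 was left out and lost when any of the other 14 libraries was, with adjusted p up to 0.125 for Gbp6 and 0.119 for Cxcl9. Over these fits the number of all genes called ran from 6 to 1222, against 58 with every library kept. Without day 7 LLC libraries 2 and 4 the differences were -1.27 for Gbp6 and -1.36 for Cxcl9 (edgeR adjusted p = 0.152 and 0.146), and those of Gbp4 and Gbp9 turned positive at 0.15 and 0.04. Without the 3 day 21 libraries that stood apart, Gbp6, Cxcl9, Igtp and Irgm2 passed (edgeR adjusted p = 0.0125, 0.0131, 0.029 and 0.0282), in a fit that called 1190 of all genes.

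**Figure D3:**
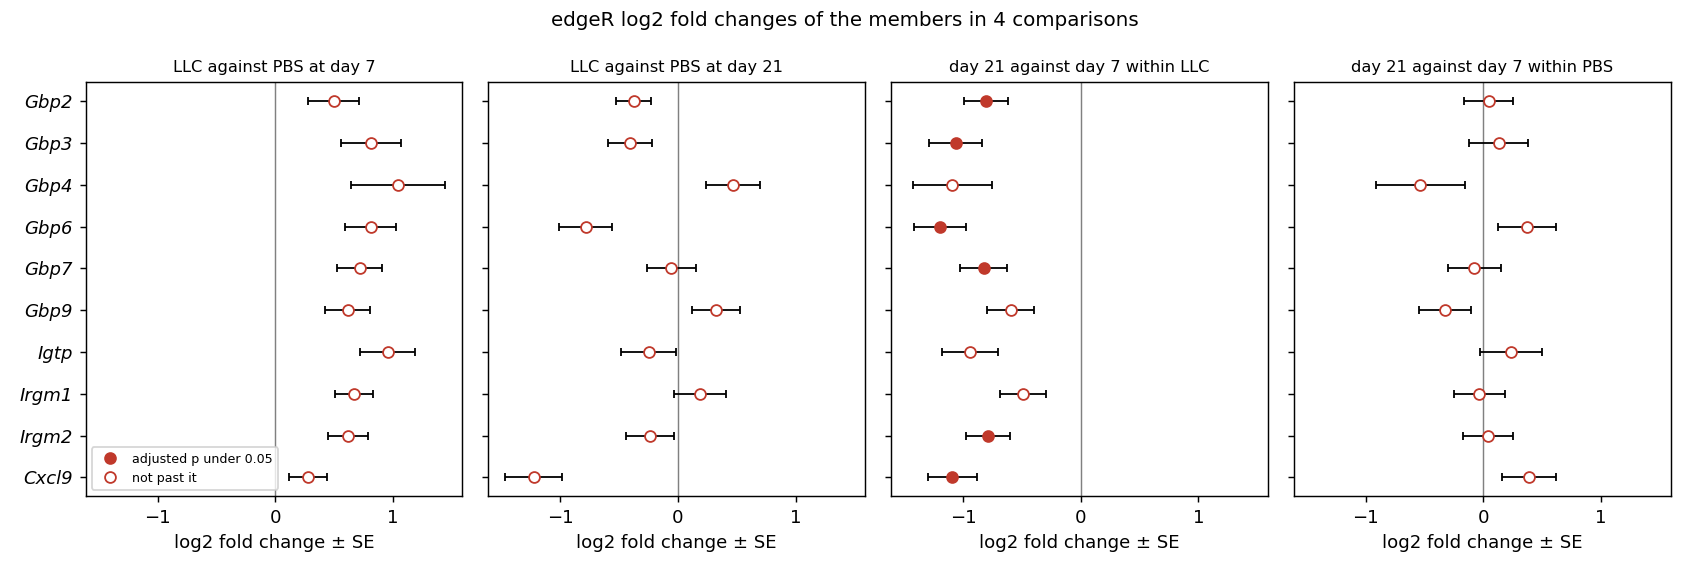
Log2 fold changes of the 10 members with SE bars in 4 comparisons from edgeR, with filled points for an adjusted p under 0.05 over all genes. All 10 lie right of 0 in LLC against PBS at day 7 and left of 0 in day 21 against day 7 within LLC, while day 21 LLC against PBS and day 21 against day 7 within PBS straddle 0.

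The difference between days was then set out within each arm. Among LLC libraries all 10 members were lower at day 21 than at day 7, with a median log2 fold change of -0.88 against 0.047 over 13975 genes, of which 57.8% were higher. In edgeR 6 members fell (Gbp2, Gbp3, Gbp6, Gbp7, Irgm2 and Cxcl9), against 0.93% of genes. DESeq2 called these and also Gbp4 and Igtp, 8 in all, against 2.78% of genes, and all 10 had an unadjusted p under 0.05, against 7.71%. Every day 21 LLC value lay below every day 7 LLC value in 3 members (Gbp3, Gbp6 and Cxcl9), as in 1.63% of genes.

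Gbp6 averaged 48.0 ± 12.5 CPM in day 21 LLC fat and 109.9 ± 32.5 CPM in day 7 LLC fat (log2 -1.19 ± 0.22, edgeR adjusted p = 0.0207). Cxcl9 averaged 24.9 ± 5.47 CPM in day 21 LLC fat and 52.9 ± 9.58 CPM in day 7 LLC fat (log2 -1.09 ± 0.21, edgeR adjusted p = 0.0211). Gbp3 averaged 35.0 ± 7.49 CPM in day 21 LLC fat and 73.2 ± 29.1 CPM in day 7 LLC fat (log2 -1.06 ± 0.23, edgeR adjusted p = 0.0333). These 3 genes had the clearest separation between the days, since no day 21 library reached the lowest day 7 library. Among the other members that passed, Gbp2 had -0.80 ± 0.19, Gbp7 -0.82 ± 0.20 and Irgm2 -0.79 ± 0.19 (edgeR adjusted p = 0.0431, 0.0469 and 0.046). Igtp (-0.94 ± 0.24, edgeR adjusted p = 0.0533) and Gbp4 (-1.09 ± 0.34, edgeR adjusted p = 0.102) had log2 fold changes of similar size that did not pass.

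Gbp6 passed in 17 of the 18 fits that leave out 1 library and Cxcl9 in 16, with log2 fold changes from -1.32 to -1.06 for Gbp6 and from -1.19 to -0.98 for Cxcl9. Gbp6 missed only without day 7 LLC library 2 (edgeR adjusted p = 0.0563), and Cxcl9 only without day 7 LLC library 1 or 2 (edgeR adjusted p = 0.0632 and 0.0577). Gbp3 passed in 12 of the 18 fits, Gbp2 in 6, and Gbp7 and Irgm2 in 4 each, so the number called moved with single libraries. Without day 7 LLC library 2 no member passed, without day 7 LLC library 1 there was 1, and without day 7 LLC library 4 or day 21 LLC library 3, 4 or 5 there were 2. There were 3 without any 1 of the day 7 PBS libraries or day 21 PBS library 1 or 2, 4 without day 7 LLC library 3, and up to 8 without day 21 LLC library 1. The number of all genes called moved as well, from 248 with every library kept. It was 15 without day 7 LLC library 2, 20 without day 7 LLC library 1 and 1036 without day 21 LLC library 1. With day 7 LLC libraries 2 and 4 both left out no member passed, where 3 of all genes did. The members' log2 fold changes were then negative, from -0.97 to -0.21, with a median of -0.47. Tissue of the 2 days may also have been collected, extracted or sequenced apart, and day and any such handling cannot be told apart within an arm.

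Among PBS libraries the members had no common direction. At day 21 against day 7, 6 were higher and 4 lower, with a median of 0.042 against 0.0065 over all genes, of which 50.9% were higher. None passed in edgeR (0.694% of genes were called higher and 2.52% lower), and none had an unadjusted p under 0.05 (9.47% of genes higher and 10.9% lower). DESeq2 called none either (2.96% of genes higher and 4.98% lower), nor did limma. The outermost members were Gbp4 at -0.54 ± 0.38 (edgeR adjusted p = 0.439) and Cxcl9 at 0.39 ± 0.23 (edgeR adjusted p = 0.35).

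The other genes of the same families came next, from a list of 13 guanylate binding proteins and immunity related GTPases. Of these, 11 were tested, Irgc1 was below the filter and Gbp11 was not analysed here. At day 7, 10 of the 11 were higher in LLC fat and 1 (Irgq) lower, with a median log2 fold change of 0.81. None passed in edgeR. An unadjusted p under 0.05 was reached by 7, all higher, against 4.86% of all genes. DESeq2 called 2 higher, Gbp5 (adjusted p = 0.0168) and Ifi47 (adjusted p = 0.0168), against 0.55% of all genes. Iigp1, an effector GTPase that coats parasite vacuoles, measured 89.7, 178, 80.4, 186 and 115 CPM in LLC libraries 1 to 5, against 92.5, 46.9, 75.8 and 57.5 CPM in PBS libraries 1 to 4. Gbp5, which promotes inflammasome assembly in mouse macrophages, measured 26.3, 39.8, 19.97, 45.6 and 29.5 CPM in LLC libraries 1 to 5, against 21.8, 16.0, 15.8 and 13.4 CPM in PBS libraries 1 to 4. In both genes LLC libraries 2 and 4 were again the highest, and LLC and PBS values overlapped. The effectors Tgtp1 (1.73 ± 0.49) and Tgtp2 (1.31 ± 0.34) had the largest log2 fold changes of the list, with edgeR adjusted p = 0.401 and 0.399.

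At day 21, 7 of these 11 were higher in LLC fat and 4 lower, with a median of 0.18. None passed in edgeR, 2 had an unadjusted p under 0.05 (Gbp2b and Tgtp1, both higher, as in 11.9% of genes), and DESeq2 called Gbp2b higher, as in 5.88% of genes (log2 1.90 ± 0.60 in edgeR, DESeq2 adjusted p = 0.0454). Gbp2b was scarce, at 0.983, 1.29, 2.73, 0.443 and 1.07 CPM in LLC libraries 1 to 5, against 0.482, 0.504, 0.130 and 0.246 CPM in PBS libraries 1 to 4. Gbp10, the near copy of Gbp6, showed a log2 difference of -1.02 ± 0.71 and Gbp5 one of -0.28 ± 0.30 (edgeR adjusted p = 0.399 and 0.578). Ifi47 stood at 0.72 ± 0.33, Tgtp1 at 0.53 ± 0.21, Tgtp2 at 0.33 ± 0.20, Iigp1 at 0.18 ± 0.24 and Gbp8 at 0.24 ± 0.73. The less studied Gm4951 and F830016B08Rik had log2 fold changes of 0.13 ± 0.33 and -0.71 ± 0.68 at day 21, against 0.55 ± 0.22 and 0.53 ± 0.27 at day 7. In the difference between days 10 of the 11 were negative, and Gbp2b (1.37 ± 0.63) was the positive one. None passed adjustment in edgeR or DESeq2. An unadjusted p under 0.05 was reached by Gbp2b and by 3 of the negative genes, against 7.93% of all genes on the negative side. Irgq had log2 fold changes of -0.23 ± 0.13 at day 21 and -0.08 ± 0.11 at day 7.

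The pathway upstream was described by 14 genes of the interferon-gamma ligand, receptor and signalling, of which 13 were tested at each day. At day 7, 12 were higher in LLC fat, and none was called by edgeR or DESeq2. An unadjusted p under 0.05 was found for 4, all higher, against 4.86% of all genes. At day 21, 10 were higher and 3 lower. An unadjusted p under 0.05 was found for 2, Socs3 and Ptpn2, both higher, as in 11.9% of all genes. DESeq2 called the same 2 higher, as in 5.88% of all genes.

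Irf1, a transcription factor that interferon-gamma induces, measured 46.3, 48.2, 74.1, 41.8 and 60.5 CPM in day 21 LLC libraries 1 to 5, against 57.6, 50.9, 61.3 and 61.0 CPM in PBS libraries 1 to 4, and the groups overlapped. Its log2 fold change was -0.11 ± 0.17 at day 21 and 0.28 ± 0.12 at day 7 (edgeR adjusted p = 0.713 and 0.56). Among the brakes on the pathway, Socs3 measured 45.5, 15.2, 18.96, 20.2 and 17.9 CPM in day 21 LLC libraries 1 to 5, against 8.98, 8.12, 6.00 and 5.90 CPM in PBS libraries 1 to 4. The log2 fold change of Socs3 was 1.68 ± 0.34 (edgeR adjusted p = 0.0638, DESeq2 adjusted p = 0.000218). Ptpn2, a phosphatase that removes phosphate from JAK kinases, had 0.57 ± 0.14 (edgeR adjusted p = 0.0807, DESeq2 adjusted p = 0.00736), while Socs1 had 0.43 ± 0.42 at a mean near 2 CPM. At day 7 the values were 0.44 ± 0.27 for Socs3, 0.14 ± 0.11 for Ptpn2 and 0.07 ± 0.22 for Socs1.

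None of the receptor chains and kinases passed at either day. At day 21 Ifngr1 showed a log2 difference of 0.46 ± 0.25, Ifngr2 of 0.05 ± 0.20, Jak1 of 0.36 ± 0.18 and Jak2 of 0.13 ± 0.15, with edgeR adjusted p of 0.27 or more. At day 7 their values were 0.21 ± 0.12, 0.16 ± 0.11, 0.04 ± 0.07 and 0.09 ± 0.07 in the same order. Ciita, the switch for MHC class II genes, and Irf8, a factor of macrophages, dendritic cells and B cells, followed 1 library. At day 21 Ciita measured 11.5, 9.36, 111, 2.09 and 7.14 CPM in LLC libraries 1 to 5, against 6.63, 4.85, 2.54 and 8.97 CPM in PBS libraries 1 to 4, so that LLC library 3 stood alone. The log2 fold change was 2.27 ± 1.06 for Ciita and 1.27 ± 0.78 for Irf8 at day 21 (edgeR adjusted p = 0.231 and 0.339), against -0.03 ± 0.17 and 0.10 ± 0.14 at day 7. Irf9 had 0.05 ± 0.18 at day 21 and 0.36 ± 0.13 at day 7, and Nlrc5, the switch for MHC class I genes, had -0.11 ± 0.12 and 0.33 ± 0.14.

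Around Cxcl9, the chemokine Cxcl10, its receptor Cxcr3 and Ccl5 were all scarce, and none of the 3 was called at either day. Cxcl10 averaged 2.68 ± 1.72 CPM in day 21 LLC fat and 3.66 ± 1.86 CPM in day 21 PBS fat, and 4.196 ± 1.85 CPM in day 7 LLC fat and 2.74 ± 0.701 CPM in day 7 PBS fat (SD). Its log2 fold change was -0.46 ± 0.52 at day 21 and 0.62 ± 0.32 at day 7. Cxcr3 had -0.16 ± 0.51 at day 21 and 0.19 ± 0.24 at day 7, and Ccl5 had 0.15 ± 0.36 and 0.32 ± 0.18. Cxcr3 stood between 0.800 and 4.50 CPM in the 18 libraries, and no difference of it was detectable at this depth.

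Antigen presentation genes that interferon-gamma induces were taken as 15 genes. At day 7, 11 were higher and 4 lower in LLC fat, with a median of 0.16, and DESeq2 called Tap2 alone, higher, as in 0.55% of all genes. At day 21, 7 were higher and 8 lower, with a median of -0.20, 6 had an unadjusted p under 0.05 on the lower side (11.5% of all genes) and 2, H2-Aa and Cd74, on the higher side (11.9% of all genes). DESeq2 called 5 lower (Psmb9, Tap2, Tapbp, H2-K1 and H2-D1), against 5.57% of all genes, and none higher. Tap2, part of the peptide transporter, had -0.39 ± 0.10 at day 21 and 0.29 ± 0.08 at day 7. H2-K1 and H2-D1, the class I heavy chains, had -0.59 ± 0.17 and -0.60 ± 0.17 at day 21, with edgeR adjusted p = 0.101 and 0.101. None of the 15 passed in edgeR at either day.

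Type I interferon stimulated genes, 21 tested, were all higher in LLC fat at day 7, with a median of 0.84, and 13 higher and 8 lower at day 21, with a median of 0.19. At day 7 edgeR called none, DESeq2 called 10 (0.55% of all genes), and an unadjusted p under 0.05 was reached by 20 (4.86% of all genes). At day 21 none was called by either tool or had an unadjusted p under 0.05. Bst2, which tethers budding virus particles, had -0.19 ± 0.23 at day 21 and 0.98 ± 0.20 at day 7. The 10 members and this list thus had similar medians at day 7, and whether an interferon acted in the tissue, and which, was not tested.

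To show how the lists run together, each library was scored per list as the average of its genes' log2 CPM, centred on each gene's mean over the 18 libraries. The member score was 0.94 and 1.04 in day 7 LLC libraries 2 and 4, and 0.26, 0.16 and 0.21 in LLC libraries 1, 3 and 5, against -0.34 to 0.13 in day 7 PBS libraries. At day 21 it ran from -0.70 (LLC library 4) to -0.09 (LLC library 1) in LLC fat, against -0.35 to 0.11 in PBS fat. The type I interferon score was 1.11 and 1.08 in day 7 LLC libraries 2 and 4. At day 21 it was highest in LLC library 1 (0.82) and PBS library 4 (0.47), which were also the libraries with the highest macrophage scores of their groups.

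**Figure D4:**
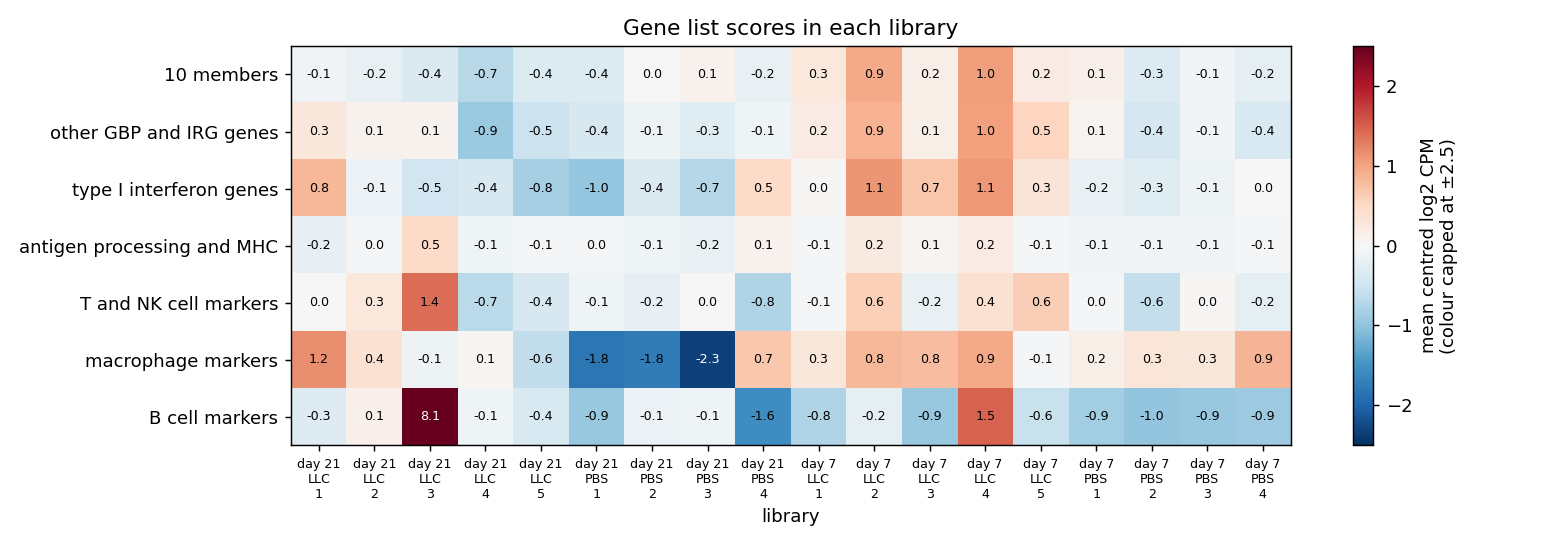
Score of 7 gene lists in every library, as the mean centred log2 CPM of each list's genes; the colour scale is capped at 2.5 on either side and each cell prints its value. Day 7 LLC libraries 2 and 4 are high for the members, the other GTPases and the type I interferon genes, and day 21 LLC library 3 is high for the B cell and T cell lists but at -0.4 for the members.

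Markers of the cells that make or answer interferon are set beside these values. The 16 T cell and natural killer cell markers were all higher in LLC fat at day 7, none past adjustment in edgeR or DESeq2. An unadjusted p under 0.05 was reached by 3, against 4.86% of all genes. Summed levels were 23.6 to 43.7 CPM in LLC libraries, against 20.2 to 27.4 CPM in PBS libraries. None of the 16 was at 0 in any library of day 7. Macrophage markers were higher in 9 of 12 genes at day 7, with summed levels of 1381 to 2871 CPM in LLC libraries, against 1789 to 2966 CPM in PBS libraries. At day 21 all 12 were higher in LLC fat, 1 of them called by DESeq2, as in 5.88% of all genes. Their summed levels were 1061 to 3710 CPM in LLC libraries, against 292 to 2690 CPM in PBS libraries, and none was at 0. PBS libraries 1 to 3 of day 21 were the lowest, at 450.3, 450.2 and 292 CPM. At day 21 against day 7, all 12 macrophage markers were lower within PBS (median log2 fold change -0.996, 1 called by edgeR, against 2.52% of all genes). Within LLC 10 were lower and 2 higher (median -0.293, none called). B cell markers summed to 1419 CPM in day 21 LLC library 3, against 3.00 to 6.41 CPM in the other day 21 LLC libraries and at most 4.22 CPM in day 21 PBS libraries, where up to 3 of the 7 were at 0. That library had 24.0 CPM of Cxcl9 and 35.0 CPM of Gbp6, inside the range of its group, and it was the highest LLC library of day 21 for Gbp4 and Gbp9. The part of these cells in the differences of the members was not tested.

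How closely the members ran together was described over the 18 libraries, which share the group differences. The pair with the highest Pearson correlation of log2 CPM was Gbp3 and Gbp7 (r = 0.946), and the pair with the lowest was Irgm1 and Cxcl9 (r = 0.121). Against the mean of the other 9 members, Gbp3 had r = 0.964, Gbp7 0.944, Gbp2 0.919, Irgm2 0.872, Gbp6 0.855, Igtp 0.852, Gbp9 0.773, Irgm1 0.755, Gbp4 0.731 and Cxcl9 0.554. Cxcl9 was closest to Gbp6 (r = 0.779) and Gbp2 (r = 0.742). Gbp4 was closest to Gbp9 (r = 0.90), which overlaps it on the same strand and shares 60 exon bases with it.

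Among the 13911 other genes with a symbol that passed the filter, Iigp1 was most like the members' mean over the 18 libraries (r = 0.913), followed by Parp9 (0.856), Gbp5 (0.852), Tgtp2 (0.847), Herc6 (0.837), Xaf1 (0.828), Ifih1 (0.826), Apol10b (0.825), Bst2 (0.816) and Stat2 (0.795). With the group means taken out, which leaves only the spread between libraries of a group, Iigp1 again led (r = 0.886), and among the next were Ado (0.878), Il18bp (0.862), Gbp5 (0.83), Tgtp2 (0.802), Gvin1 (0.741), Zfp408 (0.730), Tgtp1 (0.729) and Parp9 (0.727). Iigp1, Gbp5, Tgtp2 and Parp9 were among the 10 highest by both measures, and Ado had only r = 0.203 over the 18 libraries with the group differences left in.

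Near-identical copies and overlapping annotations limit some of these values, since the authors' counting divides shared reads by estimation. Of the distinct 31-base stretches in the annotated transcripts, 74.2% of those of Gbp6 also occur in another gene, 67.8% in Gm43302 and 45.7% in Gbp10. Gbp6 held 85.02% of the counts assigned to these 3 genes over the 18 libraries, Gbp10 8.73% and Gm43302 6.25%. With the 3 summed as 1 gene, the log2 fold change within LLC was -1.31 (edgeR adjusted p = 0.0209), and the difference between days was -1.60 with the call lost (edgeR adjusted p = 0.0637). For the other members the shared portion was 18.3% for Gbp9, 15.9% for Igtp, 14.7% for Gbp7, 14.3% for Gbp4, 10.7% for Irgm2, 5.64% for Gbp3, 4.85% for Gbp2, 2.20% for Irgm1 and 0.574% for Cxcl9. Part of this sharing is the same genomic sequence annotated under both genes. On the same strand, Gbp6 shares 1726 of its 5954 exon bases with Gm43302, and Gbp7 637 of its 5614 with the pseudogene Gm43802. Igtp and Irgm2 share 162 exon bases, and Gbp4 and Gbp9 share 60. Reads in such bases cannot be assigned to either gene of a pair with certainty.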

How the data were processed

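RNA of 18 inguinal fat samples was measured by sequencing, in 2 deposited tables, 1 per day. Per the submitters' processing notes, reads were trimmed with fastp 0.23.0 and quantified with RSEM (version not given) on mm10/GRCm38; neither the aligner nor the annotation release is named there. The authors deposited RSEM expected counts per gene, of which 100% are whole numbers and which were taken as rounded. The deposited tables also hold TPM per library, made by the authors per the file headers. The authors' own log2 fold changes and their p-values with FDR stand in the deposited tables, and the tool behind them is not named there.

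The members and gene lists were chosen with earlier results of these data known. Named genes are the members, all genes of 3 lists (other GTPases of the families, interferon-gamma signalling, the CXCR3 axis), up to 4 genes of smallest p from each other list (antigen processing, type I interferon, and markers of T and natural killer cells, macrophages, dendritic cells, B cells, endothelium, adipocytes, progenitors and fibroblasts, and muscle), and the 10 genes most like the members by either measure. Some further genes are named because a count of them was small, after their values were seen. A few genes that the rule names are not reported here.

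Counts were tested with edgeR 4.0.16 (R 4.3.3; TMM, filterByExpr, quasi-likelihood test, Benjamini-Hochberg adjustment over all genes, threshold 0.05), each day in its own fit of 9 libraries, and the difference between days and the changes within an arm in 1 fit of 18. Standard errors were derived from the size of each log2 fold change and its F statistic. Alternatives were DESeq2 1.42.0, limma 3.58.1 on log2(TPM + 1) and log2(TPM + 0.1), other size factors and filters, the replicate block and left-out libraries. The edgeR, DESeq2 and limma steps were tested on simulated data. Scores used log2 CPM with a prior count of 2. Sequences and motifs were read from RefSeq tables with Python 3.11.15, numpy 2.4.6 and Biopython 1.88, and shared 31-base stretches from GENCODE transcripts. No entry of those promoter tables was used for Gbp4, Gbp6 and Gbp9. Day and any handling that differed between days cannot be told apart.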

Additional observations from a re-analysis of the deposited data

Results flagged for a closer look

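Gbp4 in day 7 PBS fat had 1 library far from the others: library 1 stood at 73.9 CPM, while the other 3 lay at 37.2 CPM or less. Of the 40 gene and group combinations checked for such a gap this was the 1 found, and chance flags about 1 in 20 groups. The same library was the highest control for Gbp2, Gbp3, Gbp6, Gbp7, Gbp9, Irgm1 and Cxcl9.

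The effect of LLC differed between the days for 2 members in the interaction test. For Gbp6 the log2 fold change of LLC over PBS at day 21 minus that at day 7 was -1.57, and for Cxcl9 it was -1.48 (edgeR adjusted p = 0.048 and 0.044). Both genes had been chosen with these libraries in view, and both calls were lost when any 1 of 14 of the 18 libraries was left out.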

How the results depend on the processing

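All p-values are edgeR's unless another tool is named. Alternatives that leave out day 7 LLC libraries 2 and 4 together, or sum Gbp6 with its near copies, were chosen after seeing the data. The 3 day 21 libraries that stood apart were likewise named from marker levels in these data. The cause of a changed count was not tested. Main counts of genes called were 1 (day 7), 12 (day 21), 58 (difference between days), 248 (within LLC) and 449 (within PBS), with 0, 0, 2, 6 and 0 members. With no filter on low counts there were 1 member in the difference, and 139 genes and 3 members within LLC. Limma on log2(TPM + 1) called 61 genes at day 21, 21 genes and 0 members in the difference, and 27 genes and 1 member within LLC, and on log2(TPM + 0.1) it called 78, then 23 and 0, then 24 and 1. DESeq2 called 93 genes and 4 members at day 7, 1552 and 2 at day 21, 727 and 4 in the difference, 812 genes within LLC and 1109 within PBS. With 1 fit of all 18 libraries, 0 genes were called at day 7, and 2660 genes and 2 members at day 21.

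Without the 3 day 21 libraries that stood apart, 962 genes and 1 member were called at day 21, 1190 and 4 in the difference, 1789 genes within LLC and 3423 within PBS. Without day 7 LLC libraries 2 and 4, 0 genes were called at day 7, 7 genes and 0 members in the difference, 3 genes and 0 members within LLC, and 192 genes within PBS, and the difference turned positive for Gbp4 (0.15) and Gbp9 (0.040). With Gbp6, Gbp10 and Gm43302 summed, 1 member was called in the difference. Leaving out 1 library at a time gave 0 to 3 genes and 0 members at day 7, 0 to 1277 genes and 0 to 1 members at day 21, 6 to 1222 genes and 0 to 3 members in the difference, 15 to 1036 genes and 0 to 8 members within LLC, and 41 to 1692 genes and 0 members within PBS.

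With the replicate block there were 1 gene called at day 21, 145 genes and 1 member in the difference (Cxcl9, adjusted p = 0.0443; Gbp6 had 0.0605), and 132 genes and 2 members within LLC (Gbp6, 0.0483; Cxcl9, 0.0375). Libraries of the same number correlated at 0.15, -0.023, 0.19 and 0.24 at day 7 and at -0.19, 0.13, -0.058 and -0.18 at day 21. The highest correlation with another number was 0.13, 0.15, -0.027 and -0.069 at day 7 and 0.37, 0.15, 0.17 and 0.15 at day 21. The same number was thus the closest for libraries 1, 3 and 4 of day 7 and for none of day 21. The days differed in this, and the main fits did not take the numbers to pair the libraries.

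Besides Gbp4 and Gbp9 above, 6 members changed sign under some alternative, all with values near 0. Gbp7 at day 21 had 0.075 and 0.072 in limma, and ran from -0.17 to 0.054 with 1 library left out, positive without LLC library 4 or 5. Within PBS, limma gave -0.16 and -0.16 for Gbp2, -0.070 and -0.072 for Gbp3, -0.0067 and -0.0074 for Igtp and -0.17 and -0.18 for Irgm2 with pseudocounts of 1 and 0.1. Within PBS and with 1 library left out, Gbp2 ran from -0.014 to 0.093, Gbp7 from -0.12 to 0.018, Irgm1 from -0.17 to 0.080 and Irgm2 from -0.076 to 0.098, the turns coming without day 7 PBS library 2 or day 21 PBS library 1, 2 or 3. TPM moved the median of all genes to 0.13 from 0.02 at day 21, to 0.15 from 0.05 in the difference and to -0.17 from 0.01 within PBS. Scarce genes such as Ifng, Socs1 and Cxcr3 are limited by depth, and the abundant members by the spread between 4 or 5 libraries a group.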

Other observations

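Other members of the families and the type I interferon genes also stood lower at day 21 than at day 7 within LLC. All 11 other GTPases tested had a negative log2 fold change there, with a median of -0.75; edgeR called none, DESeq2 called Iigp1, Tgtp2 and F830016B08Rik, and an unadjusted p under 0.05 was reached by 8. All 21 type I interferon genes were negative, with a median of -0.80. For these edgeR called none, DESeq2 called 6, and an unadjusted p under 0.05 was reached by 13. Of all genes within LLC, DESeq2 called 2.78% lower, and 7.71% were lower with an unadjusted p under 0.05. Within PBS, 4 of the 11 GTPases were higher and 7 lower, and 7 of the 21 type I genes were higher and 14 lower. Antigen presentation genes within PBS were higher at day 21 for 11 of 15. EdgeR called 3 of them, against 0.694% of all genes, and DESeq2 called 6, against 2.96%.

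Markers of other compartments had their own values. The 6 adipose progenitor and fibroblast markers were all lower in LLC fat at day 7 (median log2 fold change -0.26, none called). At day 21, 5 were higher and Col1a1 lower (median 1.08), with Pdgfra and Dcn called by DESeq2. Within PBS all 6 were lower at day 21 than at day 7 (median -1.44), 3 of them called by edgeR, against 2.52% of all genes. Endothelial markers were higher in LLC fat for 7 of 8 at either day (median 0.32 at day 21 and 0.16 at day 7), and at day 21 DESeq2 called Pecam1, Tek, Esam and Emcn higher. Adipocyte markers were lower in LLC fat for 7 of 8 at day 21 (median -0.25), with Plin1 and Lpl called by DESeq2, and for 6 of 8 at day 7 (median -0.07). Of all genes, DESeq2 called 5.88% higher and 5.57% lower in LLC fat at day 21.

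Dendritic cell markers were higher for 5 of 6 at day 21 (median 0.40) and 3 of 6 at day 7 (median -0.043), none called. Of the T cell and natural killer cell markers tested at day 21, 10 of 13 were higher (median 0.30), none called. An unadjusted p under 0.05 was reached by 2 (Cd3e and Cd4), both higher, as in 11.9% of all genes. B cell markers tested were higher in LLC fat in 3 of 3 at day 21 and 2 of 2 at day 7, none called. Skeletal muscle markers tested were lower in 6 of 6 at day 21 (median -1.51) and 2 of 2 at day 7, none called. Their summed level ran from 2.16 to 1875 CPM in day 21 LLC libraries and from 6.82 to 4223 CPM in day 21 PBS libraries. At day 7 it ran from 6.66 to 1432 CPM in LLC and from 11.7 to 6071 CPM in PBS libraries, so these directions can rest on single libraries. How far these cell markers bear on the interferon-inducible genes was not tested.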
